A study of Mus musculus with 4 samples.

Results

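The proteasome genes were the protein-coding mouse genes whose symbols run from Psma to Psmg followed by a number. The name rule matched 50 of the 55401 gene models in the deposited tables, and 49 of the 50 were among the 14635 genes tested. The remaining member, Psmb11, is a core subunit known for its restriction to the thymus, and it had 0 counts in all 4 libraries. RNA-seq was performed on bone marrow cells that the labels call long-term hematopoietic stem cells (HSCs) and the study's text calls hematopoietic stem and progenitor cells, with 2 Control and 2 KO libraries. Control mice, labelled WT, carried the floxed Cpt1a allele (Cpt1a fl/fl). KO mice carried the same allele together with Vav1-Cre, whose promoter is active across blood cells, so deletion was not limited to stem cells. Cpt1a encodes the carnitine palmitoyltransferase that lets long-chain fatty acids enter mitochondria. The methods describe adult mice of both sexes on a C57BL/6 background. No label says that libraries with different replicate numbers came from different animals, so the p-values measure the spread between these libraries, which may be technical.

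The proteasome degrades proteins that carry ubiquitin chains. Its core particle is a barrel of stacked alpha and beta rings, and 3 of the constitutive beta subunits (Psmb5, Psmb6 and Psmb7) carry the proteolytic sites. In cells of the immune system, and after interferon, these sites are taken by Psmb8, Psmb9 and Psmb10, which form the immunoproteasome and favour peptides that fit MHC class I molecules. The regulatory particle, or cap, recognises ubiquitin, unfolds the substrate with a ring of ATPases and feeds it into the core. HSCs are known for a low rate of protein synthesis, and degradation by the proteasome is part of how they keep their proteins in balance.

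Libraries held 20589218 and 23291747 expected counts in Control replicates 1 and 2, and 34083159 and 33909781 in KO replicates 1 and 2. Cpt1a was at 37.0, 35.6, 11.5 and 19.2 TPM in Control 1, Control 2, KO 1 and KO 2, and its counts fell by 1.60 on the log2 scale (SE 0.152, edgeR adjusted p = 0.00695). All 10 HSC markers were found in at least 3 libraries, with Hoxb5 at 0 in KO 2, and they summed to 563 to 619 TPM per library. The 10 neutrophil and granule genes, among them Mpo and S100a9, summed to 8036 to 11673 TPM in Control and 6229 to 6442 TPM in KO, so transcripts of the granulocyte lineage were abundant in cells labelled as stem cells. Marker lists of other lineages moved with genotype. Of 12 B lineage markers, 10 rose in KO and their summed level was 65.0 and 99.5 TPM in Control against 679 and 469 TPM in KO. Of 8 mast cell and basophil markers, 4 rose (46.9 to 83.0 against 387 to 454 TPM), with Cma1 and Tpsb2 at 0 in both Control libraries. Of 12 erythroid markers tested, 6 fell (905 to 950 against 315 to 407 TPM), and Alas2 was at 0 in every library. Of the 10 neutrophil genes, 1 (Elane) fell, and of 6 T and NK cell genes tested, 1 (Gzmb) rose, with Cd3e at 0 in every library. None of 12 monocyte, macrophage and dendritic cell markers or 4 stromal and endothelial markers passed the test. Their part in the proteasome values was not tested. In bulk libraries, fewer cells of a type and less RNA per cell cannot be told apart.

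As a group, the proteasome genes were abundant and differed little between genotypes. They took 0.711% and 0.683% of all TPM in Control and 0.693% and 0.734% in KO. In TPM, a level that takes transcript length into account and sums to the same total in each library, the median member stood at the 92.85 percentile of the genes tested, and 33 members reached 100 TPM averaged over the libraries. The lowest members were Psma8 at 8.16 TPM and the base chaperone Psmd9 at 25.5 TPM. The highest were the activator Psme1 at 442 TPM and the inducible catalytic subunit Psmb8 at 412 TPM.

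No proteasome gene passed the edgeR test in either direction, while DESeq2 called 2 lower. By edgeR's quasi-likelihood test with Benjamini-Hochberg adjustment over all 14635 genes, 0 of 49 members were higher in KO, where 0.451% of all genes were called higher, and 0 were lower, where 0.212% of all genes were called lower. At an unadjusted p under 0.05, 1 member was higher (Psmb9; 5.81% of all genes) and 2 were lower (Psmd5 and Psmd9; 4.61% of all genes). At edgeR's small shares of adjusted calls, 0 of 49 does not set the members apart from other genes. By DESeq2, 0 members were called higher (4.46% of all genes) and Psmd5 and Psmd9 were called lower (3.69% of all genes). At an unadjusted p under 0.05 DESeq2 put Psmb8 and Psmb9 higher (10.4% of all genes) and 5 members lower (Psmc1, Psmc5, Psmd2, Psmd5 and Psmd9; 8.8% of all genes). With the study's own limits of an unadjusted p under 0.05 and a fold change over 2, edgeR called 0 members higher and 0 lower, against 2.44% and 1.33% of all genes, and DESeq2 likewise 0 and 0, against 4.09% and 2.28%. A p that misses the threshold does not show that a gene was unchanged, and the intervals give the range of change that the libraries allow.

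**Figure D1:**
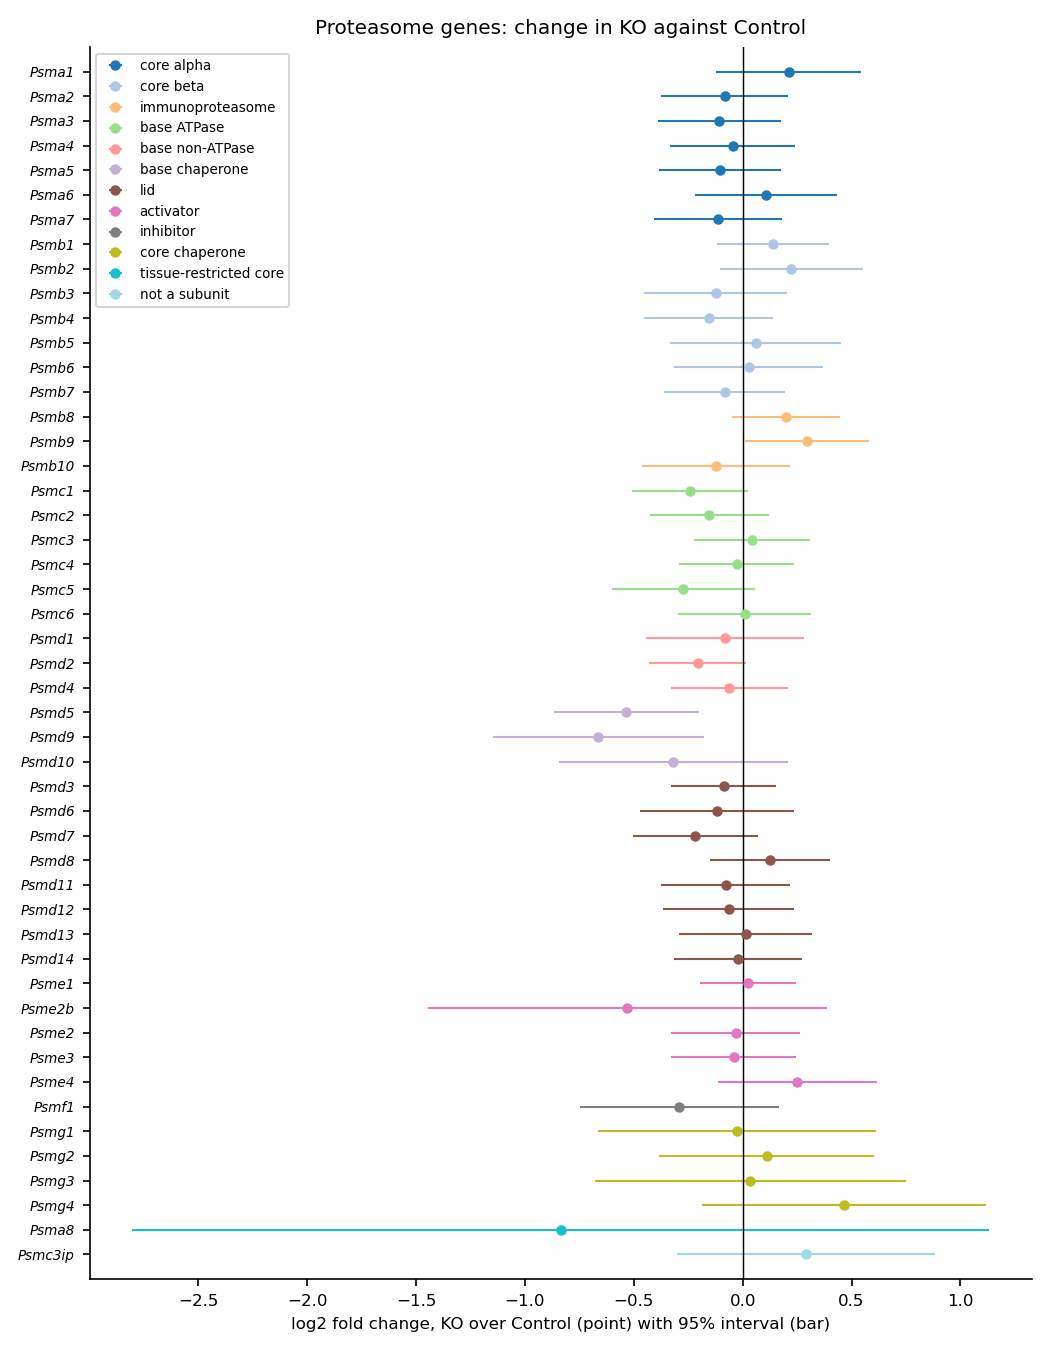
Log2 fold change of KO over Control (horizontal axis) for the 49 proteasome genes tested, drawn as a point with its 95% interval and coloured by class. The points of 45 genes lie within 0.5 of 0, and the widest interval, that of Psma8, runs from -2.80 to 1.13.

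The fitted changes were narrow. The median of the absolute log2 fold change was 0.11 over members and 0.25 over all genes tested. No member had a fitted change over 1 on the log2 scale, where 15.4% of all genes did, and 4 (Psma8, Psmd5, Psmd9 and Psme2b) had one over 0.5, where 30.0% of all genes did. The 95% interval lay within 1 of 0 for 45 of 49 members (53.6% of all genes) and within 0.5 of 0 for 31 members (20.3% of all genes). Members were also more deeply counted than most genes, with a median of 2712 counts per library, and the part of depth in these shares was not tested. The sign leaned downward: 31 of 49 fitted changes were below 0 (49.1% of all genes), with a median of -0.06 over members and 0.01 over all genes. Without Control 1 the median over members was -0.014, and without KO 2 it was -0.093.

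The libraries of the 2 genotypes did not overlap in CPM, the counts scaled by library size, for 22 of the members. Both KO libraries were above both Control libraries for 8 members, or 16.3%, where 23.6% of all genes behaved so. Both were below for 14 members, or 28.6%, where 18.3% of all genes behaved so. In TPM the numbers were 8 above (23.1% of all genes) and 10 below (16.8% of all genes). The libraries also differed within a genotype: Control 1 held the highest value for 22 of 49 members and KO 1 the lowest for 21. By a binomial test of the counts at an unadjusted p under 0.05, replicates differed for 71.4% of members in Control and 73.5% in KO. This test was run on members only, so it does not set them apart from other genes.

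**Figure D2:**
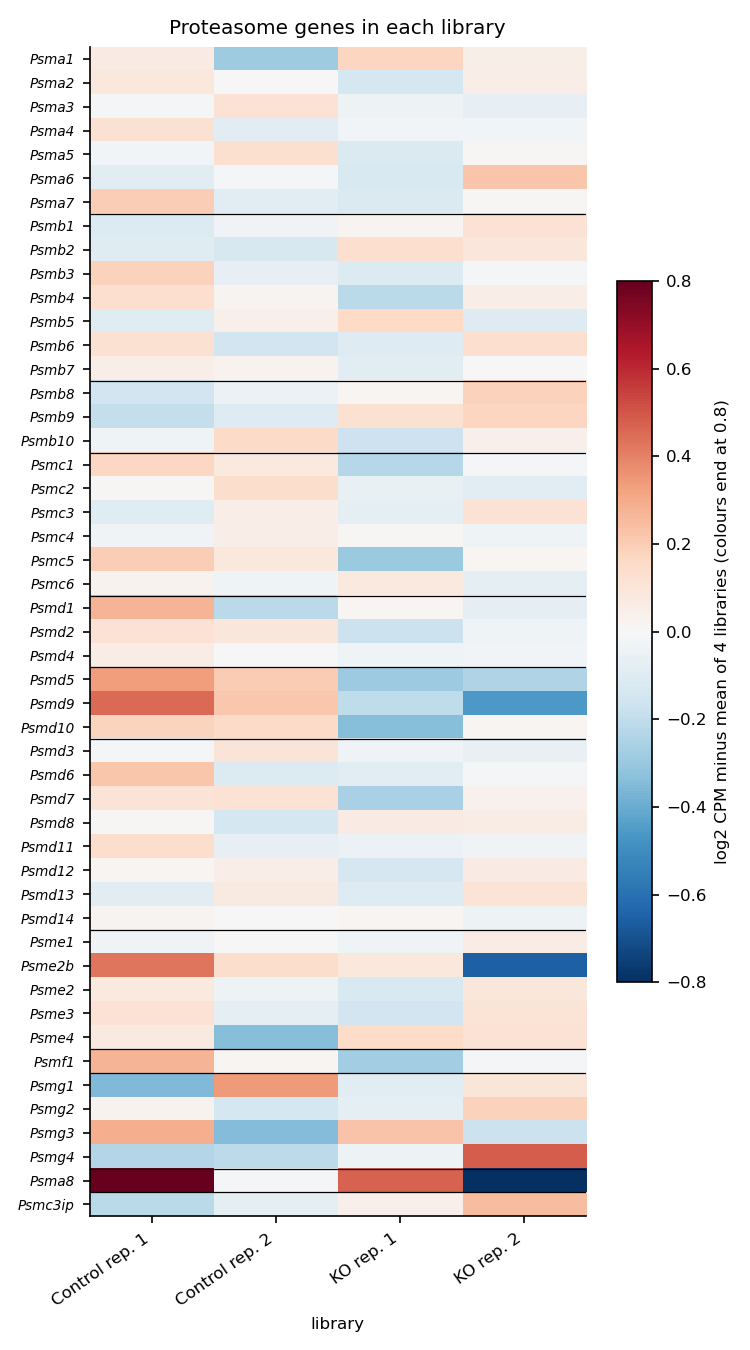
Log2 CPM of each proteasome gene in each library minus the gene's mean over the 4 libraries, from blue (below the mean) to red (above), with lines between classes. Control 1 is the reddest column, holding the highest value of 22 members, and the block of 3 base chaperones (Psmd5, Psmd9 and Psmd10) is red in Control and blue or near 0 in KO.

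Genes of the core particle did not separate the genotypes as a sum. The 14 constitutive core genes summed to 2801 and 2575 TPM in Control and 2669 and 2780 TPM in KO, or 2688 ± 160 against 2725 ± 78.7 TPM (SD, n = 2). The groups overlapped. The median fitted log2 fold change was -0.06, with 6 genes above 0 and 8 below, all 14 intervals lay within 1 of 0, and 12 lay within 0.5.

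In the alpha rings, which form the gate of the barrel, Psma7 was the most abundant gene at 397 and 319 TPM in Control and 328 and 351 TPM in KO. Psma2 was the least abundant at 75.1 and 64.3 against 57.5 and 71.1 TPM. Both genes had overlapping groups, with log2 fold changes of -0.11 (95% interval -0.41 to 0.18) and -0.08 (-0.38 to 0.21). The alpha gene with the smallest p was Psma1, at 193 and 148 TPM in Control and 216 and 191 TPM in KO (a log2 change of 0.21, SE 0.144, edgeR adjusted p = 0.689). KO 2 lay below Control 1 for Psma1, and its log2 fold change was 0.39 without Control 1 and 0.046 without Control 2. The testis-associated alpha subunit Psma8 had 1.21 to 7.34 CPM, and its interval of -2.80 to 1.13 leaves its direction undetermined.

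In the beta rings, 2 structural subunits had both KO libraries above both Control libraries, as did 23.6% of all genes in CPM and 23.1% in TPM. Psmb2 was at 145 and 140 TPM in Control and 178 and 167 TPM in KO (a log2 change of 0.22, SE 0.142, edgeR adjusted p = 0.650). Psmb1 was at 120 and 125 TPM against 135 and 141 TPM (0.14, SE 0.111, edgeR adjusted p = 0.759). Neither passed the test. The 3 constitutive catalytic genes did not separate the genotypes in the same direction. Psmb5, of the chymotrypsin-like site, was at 117 and 128 TPM in Control and 146 and 118 TPM in KO. Psmb6, of the caspase-like site, was at 292 and 244 against 263 and 300 TPM. Psmb7, of the trypsin-like site, was at 159 and 156 against 151 and 156 TPM, a gap between genotypes of under 1 TPM. Their log2 fold changes were 0.06 (-0.33 to 0.45), 0.03 (-0.32 to 0.37) and -0.08 (-0.36 to 0.20). Of the sequence of Psmb5, 36.8% of its 75-base words also occurred in another gene model. Its counts thus rest in part on the division of shared reads. The deposited posterior SD of its count was at most 0.445% of the posterior mean in any library.

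Of the immunoproteasome genes, Psmb8 and Psmb9 were higher in both KO libraries and Psmb10 was not, in counts. Psmb9, which replaces Psmb6, was at 113 and 133 TPM in Control and 157 and 167 TPM in KO. In scaled counts it was at 85.5 and 90.6 CPM against 106 and 110 CPM, with a fitted log2 ratio of 0.29 (SE 0.123, interval from 0.01 up to 0.58, unadjusted p = 0.0435, edgeR adjusted p = 0.460). It was the member with the smallest p among those that were higher. Psmb8, which replaces Psmb5, was at 364 and 380 TPM in Control and 421 and 483 TPM in KO. Its counts were 198 and 213 CPM against 223 and 250 CPM (log2 fold change 0.20, SE 0.107, 95% interval -0.05 to 0.45, edgeR adjusted p = 0.570). For both genes the lower KO library stood above the higher Control library, as for 23.6% of all genes in CPM and 23.1% in TPM. Neither Psmb8 nor Psmb9 passed the test after adjustment. Without KO 2 the log2 fold change of Psmb8 was 0.12, while that of Psmb9 ran from 0.25 to 0.34 with a library left out. Psmb10, which replaces Psmb7, was at 77.5 and 88.3 CPM in Control and 70.7 and 81.6 CPM in KO (log2 fold change -0.12, 95% interval -0.46 to 0.22, edgeR adjusted p = 0.888). In TPM its order was the other way, at 155 and 173 against 189 and 172 TPM. Psmb10 overlapped between genotypes on both scales.

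**Figure D3:**
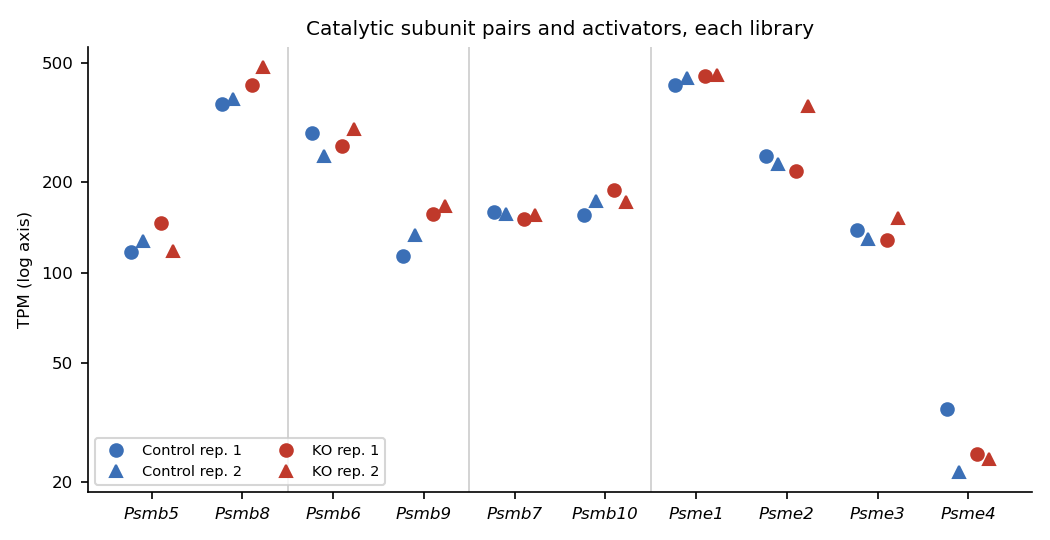
TPM (log axis) of each constitutive catalytic gene beside the inducible gene that replaces it, and of the activator genes, in each of the 4 libraries. For Psmb8 and Psmb9 both KO points lie above both Control points, while the points of the other catalytic genes overlap or, for Psmb7, run from 151 to 159 TPM.

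The inducible genes were already the larger part of the catalytic transcripts in Control. Together they summed to 633 and 686 TPM in Control and 766 and 821 TPM in KO, 659 ± 37.9 against 794 ± 38.5 TPM (SD, n = 2), a ratio of 1.20. The 3 constitutive catalytic genes summed to 568 and 528 against 560 and 575 TPM. The inducible share of the 6 genes was 52.7% and 56.5% of TPM in Control and 57.8% and 58.8% in KO, a difference of 3.69 percentage points between means of 54.6% ± 2.73 and 58.3% ± 0.748 (SD, n = 2). Without Control 1 the difference was 1.77 percentage points, and without Control 2 it was 5.62. Both KO libraries were above both Control libraries, but the gap between Control 2 and KO 1 was smaller than the gap between the Control libraries. In CPM the shares were 56.8% and 60.3% against 60.7% and 61.9%. An exact permutation test of 2 libraries against 2 cannot give a two-sided p below 0.333, so no test was made of the share. Pair by pair, Psmb8 over Psmb5 was 3.11 and 2.97 in Control and 2.88 and 4.08 in KO, which overlapped. Psmb9 over Psmb6 was 0.389 and 0.546 against 0.596 and 0.555, with both KO libraries above. Psmb10 over Psmb7 was 0.973 and 1.11 against 1.25 and 1.10, which overlapped. In TPM the ratio of Psmb9 to Psmb6 was thus the only pair of the 3 that separated the genotypes, by a margin narrow beside the spread of the Control libraries. In CPM this pair overlapped as well, at 0.747 and 0.959 in Control against 1.09 and 0.954 in KO. B lineage markers rose in the same KO libraries (65.0 and 99.5 against 679 and 469 TPM in sum, 10 of 12 called), and their part in the inducible share was not tested.

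**Figure D4:**
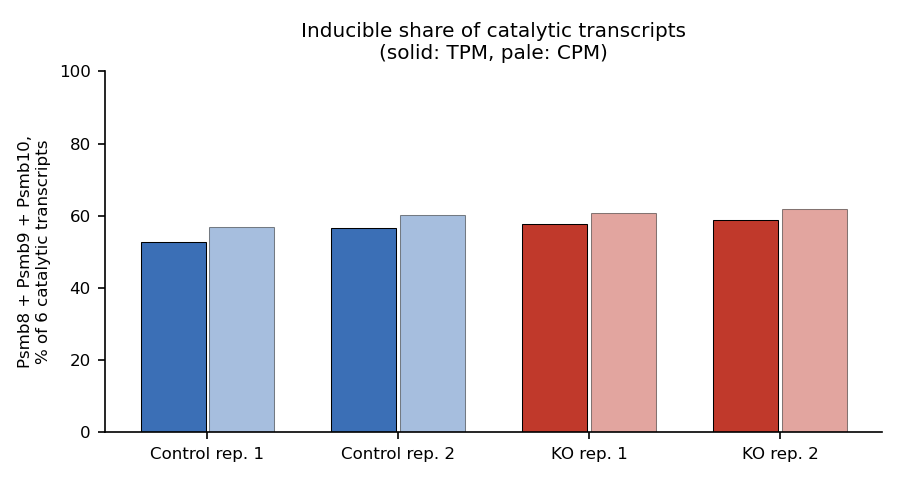
Share of Psmb8, Psmb9 and Psmb10 in the summed level of the 6 catalytic genes (vertical axis, percent) in each library, with solid bars for TPM and pale bars for CPM, Control in blue and KO in red. The TPM share runs from 52.7% in Control 1 to 58.8% in KO 2, and all 4 libraries lie above 50%.

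The sequences that flank the start of these genes are shown because of where the genes lie. Psmb9 and Psmb8 are in the MHC class II region and had both KO libraries higher. Psmb10 lies elsewhere and had overlapping groups, and the part of position was not tested. Psmb9 (mm10, chr17:34181987-34187764, minus strand) and the peptide transporter gene Tap1 (chr17:34187553-34197225, plus strand) are transcribed away from each other, and Psmb8 (chr17:34197721-34201454, plus strand) follows Tap1. Tap2 (chr17:34203527-34216321, plus strand) comes after Psmb8. Both KO libraries of Tap2 were lower in CPM and in TPM, as for 18.3% and 16.8% of all genes. Psmb10 is at chr8:105935735-105938444 (minus strand) and Psmb5 at chr14:54614119-54618022 (minus strand). Each window holds the 250 bases before and 50 bases after a RefSeq start in GRCm38.p6, 5′ to 3′ along the gene's strand: chr17:34187281-34187580 for Psmb9, chr17:34197945-34198244 for Psmb8, chr8:105938343-105938642 for Psmb10 and chr14:54617946-54618245 for Psmb5. Capitals mark matches to the interferon-stimulated response element (GAAA, any 2 bases, GAAA), the gamma-activated site (TTCNNNGAA) or the antioxidant response element core (TGANNNNGC), on either strand.
Psmb9: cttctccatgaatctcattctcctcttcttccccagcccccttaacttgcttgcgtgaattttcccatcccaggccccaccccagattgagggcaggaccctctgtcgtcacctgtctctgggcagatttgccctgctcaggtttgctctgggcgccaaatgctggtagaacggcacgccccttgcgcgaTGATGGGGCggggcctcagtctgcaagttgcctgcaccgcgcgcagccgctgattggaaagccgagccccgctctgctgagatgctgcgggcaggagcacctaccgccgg
Psmb8: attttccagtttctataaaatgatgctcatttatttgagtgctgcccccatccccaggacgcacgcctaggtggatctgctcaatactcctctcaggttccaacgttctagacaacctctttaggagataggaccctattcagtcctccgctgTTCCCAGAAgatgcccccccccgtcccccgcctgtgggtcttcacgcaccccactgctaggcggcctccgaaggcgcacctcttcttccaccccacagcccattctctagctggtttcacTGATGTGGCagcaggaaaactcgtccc
Psmb10: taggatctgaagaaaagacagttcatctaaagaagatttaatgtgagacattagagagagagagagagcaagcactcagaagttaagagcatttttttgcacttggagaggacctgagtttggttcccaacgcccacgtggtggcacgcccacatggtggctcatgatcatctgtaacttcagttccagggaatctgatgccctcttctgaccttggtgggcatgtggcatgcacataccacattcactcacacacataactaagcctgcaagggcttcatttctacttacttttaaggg
Psmb5: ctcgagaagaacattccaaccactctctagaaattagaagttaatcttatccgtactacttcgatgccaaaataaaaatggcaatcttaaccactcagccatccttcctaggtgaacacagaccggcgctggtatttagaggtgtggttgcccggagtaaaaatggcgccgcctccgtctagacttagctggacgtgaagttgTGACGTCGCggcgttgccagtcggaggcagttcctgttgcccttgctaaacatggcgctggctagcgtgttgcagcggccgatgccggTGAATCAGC
In these windows the Psmb8 sequence held a match to the gamma-activated site (TTCCCAGAA), and the windows of Psmb9, Psmb8 and Psmb5 held matches to the antioxidant response element core. The Psmb10 window held none of the 3 motifs. A match is a description of letters, and no match says only that these letters are absent from this window. The Psmb9 window overlapped that of Tap1 by 275 bases (chr17:34187306-34187580), so the pair share their start region. Windows were found for 42 of the 50 members, in 45 windows. Of these, 11.1% held the interferon-stimulated response element (3.44% of all 32851 windows of that length), 6.67% held TTCNNNGAA (8.30%), 57.8% held TGANNNNGC (41.3%) and 33.3% held CCAAT (37.4%). Each motif was searched for on both strands and separately, so matches to different motifs may overlap. The member windows had a median GC content of 57.3%, against 52.7% over all windows, and both shares and GC content are descriptions.

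The neighbours of the immunoproteasome genes in class I antigen processing had no change called by edgeR either. From a list of 21 antigen processing and interferon control genes, 0 passed the edgeR test in either direction. Over all genes, 0.451% were called higher and 0.212% lower. At shares this small, 0 of 21 does not set the list apart from other genes. DESeq2 calls over the whole list were not counted. The listed genes had a median log2 fold change of 0.07, with 13 above 0 and 8 below. The 3 genes with the smallest p were all higher. Tap1, which carries peptides into the endoplasmic reticulum, was at 104 and 110 TPM in Control and 137 and 175 TPM in KO (a log2 change of 0.39, SE 0.110, edgeR adjusted p = 0.289). B2m, the light chain of class I molecules, was at 2255 and 2339 against 2803 and 2870 TPM (0.26, SE 0.0752, edgeR adjusted p = 0.294). Tap1 and B2m had both KO libraries above both Control libraries, as did 23.6% of all genes in CPM and 23.1% in TPM. Nlrc5, a transactivator of class I genes, was at 64.2 and 99.4 CPM in Control and 123 and 127 CPM in KO (0.60, SE 0.204, edgeR adjusted p = 0.390), and its TPM values of 30.9 and 55.7 against 53.9 and 49.9 overlapped. DESeq2 called all 3 higher, where it called 4.46% of all genes higher, and the 3 had been picked for their small p. Tap2, Tapbp and Irf1, named after their values were seen, had intervals that include 0. Tap2 and Tapbp had both KO libraries below both Control libraries in CPM, as did 18.3% of all genes. Tap2 had both below in TPM as well, as did 16.8% of all genes. The log2 fold changes of Tap2 and Tapbp were -0.17 (95% interval -0.38 to 0.05) and -0.13 (-0.39 to 0.12). Irf1 had both KO libraries above in CPM, as did 23.6% of all genes, at 0.15 (-0.13 to 0.42). For Psmb9 and Tap1, reads from opposite strands overlap where the gene models do, and no source used here gives the strand setting used in counting. Other members, among them Psmb8, Psmb10, Psme1, Psmd5 and Psmd9, also overlap a gene model on the opposite strand. The same limit holds for them.

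**Figure D5:**
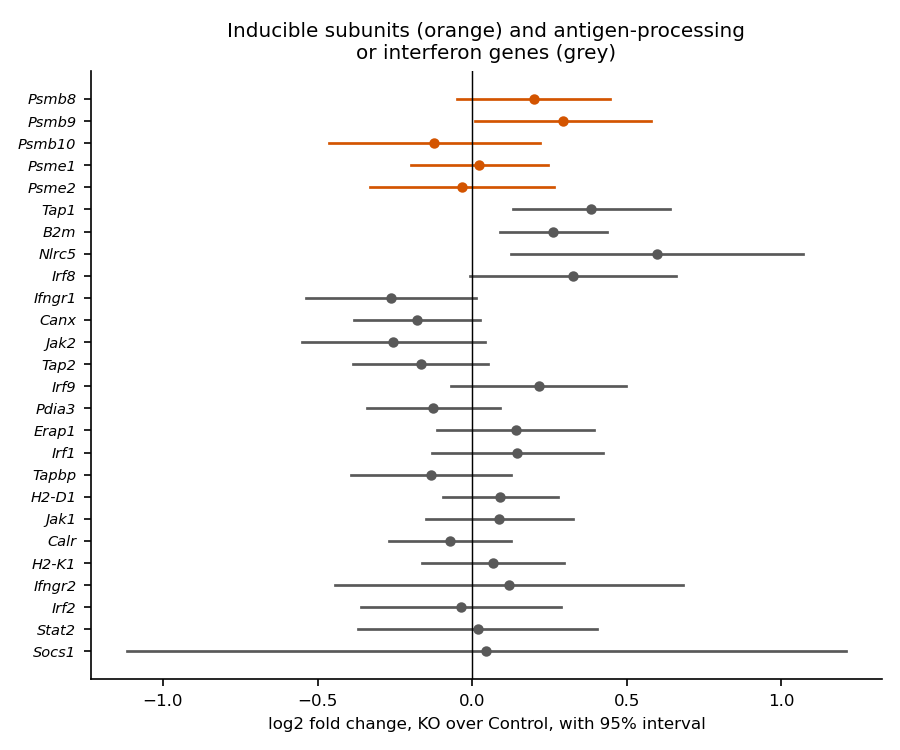
Log2 fold change of KO over Control with its 95% interval (horizontal axis) for the inducible catalytic and activator subunits in orange and 21 antigen processing and interferon control genes in grey, the latter in order of p. The intervals of Psmb9, Tap1, B2m and Nlrc5 lie above 0, and those of Psmb8, Psmb10, Psme1 and Psme2 include it.

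In the cap, fitted changes were mostly below 0 and small, apart from the chaperones that build its base. The cap class includes the 3 base chaperones, while the core class leaves out the core chaperones. The 20 cap genes summed to 2483 and 2398 TPM in Control and 2305 and 2341 TPM in KO, 2441 ± 59.8 against 2323 ± 25.4 TPM (SD, n = 2), a ratio of 0.952. Both KO libraries were below both Control libraries. The median log2 fold change was -0.08, 16 genes were below 0 and 4 above, and in CPM 10 of the 20 had both KO libraries below both Control libraries (18.3% of all genes) and 1 had both above (23.6% of all genes). All 3 base chaperones were among the 16 and among the 10.

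The base holds the ATPase ring and the ubiquitin receptors. Psmc1, an ATPase, was at 197 and 185 CPM in Control and 149 and 173 CPM in KO (log2 fold change -0.24, SE 0.116, 95% interval -0.51 to 0.03, edgeR adjusted p = 0.527). In TPM the groups met, at 211 and 207 against 207 and 193. Psmd2, a scaffold and ubiquitin-binding subunit of the base, was at 176 and 175 TPM in Control and 151 and 161 TPM in KO (-0.21, SE 0.0968, 95% interval -0.43 to 0.02, edgeR adjusted p = 0.517). Psmd2 had both KO libraries lower on both scales, as did 18.3% of all genes in CPM and 16.8% in TPM, and did not pass the test. Psmc3, the most abundant ATPase gene, was at 222 and 272 against 243 and 285 TPM, and Psmc6, the least abundant, at 90.5 and 72.5 against 89.2 and 59.6 TPM. Both overlapped, with log2 fold changes of 0.04 (-0.22 to 0.31) and 0.01 (-0.30 to 0.31).

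In the lid, whose subunits include the deubiquitinase Psmd14 that removes ubiquitin chains, the 8 genes summed to 960 and 910 TPM in Control and 913 and 927 TPM in KO. Psmd7, the partner of the deubiquitinase, was at 196 and 193 TPM in Control and 156 and 184 TPM in KO (a log2 change of -0.22, SE 0.125, 95% interval -0.50 to 0.07, edgeR adjusted p = 0.599). KO 1 was the lower of the KO libraries for Psmd7, as it was in CPM for Psmc1 and Psmd2. Without KO 1 the log2 fold change was -0.080 for Psmd7, -0.14 for Psmc1 and -0.14 for Psmd2, and without KO 2 it was -0.37 for Psmd7. Psmd14, named after its values were seen, was at 93.9 and 95.3 against 98.2 and 91.0 TPM, with a log2 fold change of -0.02 (-0.32 to 0.27).

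The members whose 95% interval lay below 0 were Psmd5 and Psmd9, chaperones of base assembly, which hold ATPase subunits during construction of the cap and leave the finished particle. Psmd5 was at 85.9 and 78.4 CPM in Control and 55.7 and 57.7 CPM in KO. The log2 fold change was -0.53 (SE 0.144, 95% interval -0.87 to -0.20, unadjusted p = 0.00611, edgeR adjusted p = 0.261), and the DESeq2 adjusted p was 0.000674. Psmd9 was at 51.5 and 43.7 CPM in Control and 32.8 and 27.4 CPM in KO. The log2 fold change was -0.66 (SE 0.209, 95% interval -1.15 to -0.18, unadjusted p = 0.0134, edgeR adjusted p = 0.349), and the DESeq2 adjusted p was 0.00852. Both genes had separate groups in CPM, and whether they count as changed depends on the tool. The third base chaperone, Psmd10, named after its values were seen, was at 34.5 and 33.9 CPM in Control and 24.0 and 30.8 CPM in KO (log2 fold change -0.32, 95% interval -0.84 to 0.21, edgeR adjusted p = 0.708). In CPM the 3 base chaperones had both KO libraries below both Control libraries, as 18.3% of all genes did. Their median log2 fold change was -0.53, and none was called by edgeR. Adrm1, a ubiquitin receptor of the base whose symbol lies outside the name rule, was at 115 and 93.7 TPM against 103 and 82.3 TPM and overlapped.

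For Psmd5 the TPM values gave a different picture of the libraries. They were 56.5 and 26.1 in Control and 19.8 and 25.0 in KO, so that Control 1 stood far above the rest and Control 2 was close to KO 2. The effective length, which is the mean number of positions a read can start from over the transcripts RSEM assigned to the gene, was 2102 bases in Control 1 and 4065, 4006 and 3204 bases in Control 2, KO 1 and KO 2. For Psmd9 the TPM values were 30.5 and 27.3 against 23.9 and 20.3, again with both KO libraries below, and effective lengths ran from 1873 to 2336 bases. With the effective length as an offset in edgeR, the log2 fold change was -0.89 for Psmd5 (adjusted p = 0.585) and -0.41 for Psmd9 (adjusted p = 0.694). The 2 windows at RefSeq starts are shown because they belong to the members with the smallest p. They are chr2:34870913-34871212 (minus strand) for Psmd5 and chr5:123227940-123228239 (plus strand) for Psmd9, in GRCm38.p6, with capitals as above. Both windows lie inside the counted gene models, chr2:34849734-34874968 for Psmd5 and chr5:123169413-123250131 for Psmd9. The counts thus also cover transcripts that begin upstream of these windows.
Psmd5: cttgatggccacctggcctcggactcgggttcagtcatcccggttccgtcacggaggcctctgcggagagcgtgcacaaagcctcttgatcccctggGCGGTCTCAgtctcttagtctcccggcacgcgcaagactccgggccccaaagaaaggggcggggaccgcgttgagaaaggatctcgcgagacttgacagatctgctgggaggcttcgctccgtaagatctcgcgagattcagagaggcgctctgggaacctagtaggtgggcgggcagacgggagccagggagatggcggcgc
Psmd9: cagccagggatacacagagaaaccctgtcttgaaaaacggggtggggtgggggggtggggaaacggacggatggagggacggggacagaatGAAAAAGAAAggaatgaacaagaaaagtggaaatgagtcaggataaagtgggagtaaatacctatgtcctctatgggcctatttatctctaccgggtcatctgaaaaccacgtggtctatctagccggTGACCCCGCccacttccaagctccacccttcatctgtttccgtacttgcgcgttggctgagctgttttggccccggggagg
The Psmd5 window held an antioxidant response element core on the opposite strand (GCGGTCTCA as printed), and the Psmd9 window held that core (TGACCCCGC) and an interferon-stimulated response element (GAAAAAGAAA).

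Activators and the inhibitor of the core, and the chaperones that build the core, showed no shared direction. The 10 genes had a median log2 fold change of 0.00 to 2 decimals, with 5 above 0 and 5 below. Psme1, of the interferon-inducible activator ring, was at 420 and 443 TPM in Control and 450 and 455 TPM in KO (a log2 change of 0.02, 95% interval -0.20 to 0.24). Psme2, its partner in the ring, was at 123 and 113 CPM against 107 and 124 CPM (-0.03, 95% interval -0.33 to 0.27). In TPM Psme2 was at 245 and 230 against 219 and 358, where KO 2 stood apart with an effective length of 478 bases against 662 to 694 bases in the other libraries. Psme2b, a near copy of Psme2 with which it shares 60.2% of its 75-base words, was at 14.8 and 12.1 CPM in Control and 11.7 and 6.99 CPM in KO. The deposited posterior SD of its count was at most 0.0821% of the posterior mean in any library. Its log2 fold change of -0.53 had an interval of -1.45 to 0.39, so its direction is undetermined. Psme2b is named after its values were seen.

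Psme3, the nuclear activator, was at 138 and 130 TPM in Control and 128 and 152 TPM in KO (a log2 change of -0.04, 95% interval -0.33 to 0.25). Psme4, a large activator that acts in chromatin and DNA repair, was at 103 and 77.8 CPM in Control and 109 and 107 CPM in KO (0.25, 95% interval -0.11 to 0.62, edgeR adjusted p = 0.645). In TPM it was at 35.1 and 21.6 against 24.9 and 23.9, with effective lengths of 4073 and 4859 bases in Control and 6232 and 6176 bases in KO, so its direction depends on the scale. The log2 fold change in counts was 0.059 without Control 2 and 0.47 without Control 1. The inhibitor Psmf1 was at 54.8 and 45.9 CPM against 37.4 and 44.9 CPM (-0.29, 95% interval -0.75 to 0.17, edgeR adjusted p = 0.683). The groups of Psmf1 were separate in CPM by about 1 CPM, and overlapped in TPM.

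Of the core chaperones, Psmg4 was at 16.9 and 17.3 CPM in Control and 19.4 and 27.9 CPM in KO (log2 fold change 0.47, SE 0.282, 95% interval -0.18 to 1.12, edgeR adjusted p = 0.622). KO 2 stood apart from the other 3 libraries, which lay within 3 CPM of each other, and the log2 fold change was 0.18 without KO 2 and 0.71 without KO 1. Psmg2 was at 35.2 and 31.3 against 32.6 and 39.1 CPM (0.11, 95% interval -0.38 to 0.60), and Psmg3, the lowest core chaperone in TPM, was at 25.4 and 16.3 against 24.4 and 18.4 CPM (0.04, 95% interval -0.68 to 0.75). Psmg2 and Psmg3 overlapped. Psmc3ip matches the name rule but encodes a meiotic recombination factor that binds the product of Psmc3. It is no proteasome subunit, and its log2 fold change was 0.29 (95% interval -0.30 to 0.89).

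TPM and scaled counts did not always rank the libraries alike. The log2 ratios of mean TPM and the fitted count ratios had opposite signs for 6 members and differed by over 0.3 for 4 (Psma8, Psme4, Psmd5 and Psme2), all of which had effective lengths that differed between libraries. Of the immunoproteasome genes, Psmb10 was among the 6, at 0.13 in TPM and -0.12 in counts. Psmb9 was at 0.39 in TPM and 0.29 in counts, and Psmb8 at 0.28 and 0.20.

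Genes that act beside the proteasome were not called by edgeR. Of 28 genes for ubiquitin supply, shuttling, substrate unfolding and proteasome assembly, 0 passed its test in either direction. Over all genes, 0.451% were called higher and 0.212% lower. With so few genes called, 0 of 28 does not set this list apart either. DESeq2 calls over these genes were not counted. The 28 genes had a median log2 fold change of -0.06, with 9 above 0 and 19 below. The smallest p belonged to Ecpas, a proteasome adaptor, at 179 and 192 CPM in Control and 240 and 215 CPM in KO (log2 fold change 0.28, SE 0.108, edgeR adjusted p = 0.439). Zfand2a, an arsenite-inducible proteasome-binding protein, was at 21.4 and 27.3 against 19.3 and 14.9 CPM (-0.52, SE 0.279, edgeR adjusted p = 0.566). In CPM Ecpas had both KO libraries above Control (23.6% of all genes) and Zfand2a had both below (18.3% of all genes), and neither passed. Nfe2l1, the transcription factor that raises proteasome genes when proteasome activity falls, is named after its values were seen. Its log2 fold change was 0.041 (95% interval -0.27 to 0.35). Pomp, which matures the core particle, was likewise named, at -0.01 (95% interval -0.30 to 0.28).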

How the data were processed

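RNA-seq was performed on 2 Control and 2 KO libraries of sorted mouse bone marrow cells. Cells were kept in RNAlater, and polyadenylated RNA was made into directional libraries for an Illumina HiSeq sequencer. Alignment with STAR, quantification with RSEM and the mm10 build are credited to the submitters' processing notes. No source used here gives their versions, the annotation or the strand setting. The authors deposited RSEM's expected count per gene, which is not normalized and need not be whole, and TPM, which is scaled to gene length and to the same sum per library. The deposited effective lengths, and posterior mean counts and their posterior SD, were also read.

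Members were found by symbol (GENCODE M21, 55141 of 55401 models named), and 4 pseudogenes matching the name rule were left out. Members, classes, gene lists and tests were chosen with earlier results of these data known. Named genes are the catalytic, activator, inhibitor and tissue-restricted members, every member with an unadjusted p under 0.05, the extremes of level and the 2 smallest p in each class, the 3 smallest p in each partner list and Cpt1a. Others are marked where they appear. A gene of the antigen processing list is not reported here.

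Expected counts were rounded and tested with edgeR 4.0.16 (R 4.3.3), using TMM, filterByExpr (minimum count 10) and the two-sided quasi-likelihood F test, which was tested on simulated data. P-values were adjusted over 14635 genes and called under 0.05 with no fold limit. Standard errors and 95% intervals came from the same fit. CPM of members was scaled with TMM factors (0.985 to 1.01). CPM of genes outside the member list, and the counts of genes without overlap in CPM, used library totals alone. The common dispersion was 0.222. Library totals of 20589218 to 34083159 counts gave members a median interval of 0.30 on the log2 scale to either side. Alternatives were DESeq2 1.42.0, its size factors, no filter, an effective-length offset, posterior mean counts, limma 3.58.1 on log2(TPM + 1) or log2(TPM + 0.1), a replicate block, the study's threshold and leaving out each library. Intervals cover the spread modelled between these libraries only.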

Additional observations from a re-analysis of the deposited data

How the results depend on the processing

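The count of members called by edgeR was 0 in both directions under every alternative run except DESeq2, which called 2 lower. Replicate numbers are shared by the groups, but deviations of same-numbered libraries from their group means correlated at -0.0239 across 14635 genes, so the numbers were not taken as pairs; with the replicate block the member counts stayed at 0 and the adjusted p of Psmd5 was 0.314, of Psmd9 0.353 and of Psmb9 0.563. The count over all genes, 31 lower and 66 higher, was 85 and 111 without the filter, 1 and 3 with the effective-length offset, 519 and 628 by DESeq2, 0 and 5 by limma on log2(TPM + 1), 0 and 0 by limma on log2(TPM + 0.1) or without a filter, and 195 and 357 with the study's threshold. Leaving out a library gave 1 to 78 lower and 3 to 114 higher. The cause was not tested. Without a KO library Cpt1a lost its call (adjusted p 0.0997 without KO 1 and 0.0839 without KO 2), as with the effective-length offset (log2 fold change -1.26, adjusted p 0.368) and in limma. Nlrc5 was called without Control 2 (log2 fold change 0.97, adjusted p 0.0285).

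With a library left out, the median log2 fold change ran from -0.13 to -0.074 in the cap and from -0.091 to 0.021 in the core, where it was above 0 without Control 1. Over the named genes, uncalled log2 fold changes turned sign in 41 combinations of a gene and a setting, and 389 combinations kept both sign and call. With a library left out, Psma2 ran from -0.18 to 0.012, Psma7 from -0.25 to 0.032, Psmb5 from -0.076 to 0.19, Psmb6 from -0.11 to 0.17, Psmc3 from -0.053 to 0.14, Psmc6 from -0.069 to 0.085, Psme1 from -0.019 to 0.068, Psme2 from -0.14 to 0.070, Psme3 from -0.17 to 0.083, Psmg2 from -0.024 to 0.23 and Psmg3 from -0.25 to 0.39. Without a change of sign, Psma8 ran from -2.15 (without KO 1) to -0.16 (without KO 2), Psmb10 from -0.23 (without KO 2) to -0.023 (without KO 1), Psmf1 from -0.43 (without KO 2) to -0.16 (without Control 1), Adrm1 from -0.40 (without KO 1) to -0.12 (without KO 2), Zfand2a from -0.71 (without KO 1) to -0.32 (without Control 2) and Nlrc5 from 0.31 (without Control 1) to 0.97 (without Control 2). With the effective-length offset, Psmb10 was at 0.12, Psmc6 at -0.15, Psme2 at 0.27, Psme3 at 0.047 and Psme4 at -0.23. By limma on log2(TPM + 1), with or without the filter, Psma8 was at 0.16, Psmb10 at 0.13, Psmc6 at -0.15, Psme2 at 0.24, Psme3 at 0.058 and Psme4 at -0.17, and on log2(TPM + 0.1) they were at 0.22, 0.14, -0.15, 0.24, 0.058 and -0.18. Psmb9, Psmb8, Psmd5 and Psmd9 kept their sign in every setting run, all of which reused the same libraries. Other named members, among them Psma1, Psmb1, Psmb2, Psmb7, Psmc1, Psmd2, Psmd7 and Psmg4, also kept their sign with a library left out. With 2 libraries per genotype, an interval of 0.30 on the log2 scale to either side was the median over members. A call asked for more than an interval that excludes 0, because p was adjusted over all genes. Psmd5, Psmd9 and Psmb9 had such intervals and were not called by edgeR. A change larger than a member's own interval could therefore also go uncalled.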

Other observations

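Of the 4 pseudogenes that match the name rule, Psmb5-ps, Psmb6-ps and Psmb6-ps2 were at 0 in all 4 libraries, and Psmb7-ps2 was at 1.19 TPM in KO 2 and 0 in the others. Across members, log2 CPM of the replicates correlated at 0.979 in Control and 0.975 in KO. This correlation is across genes, which are no independent replicates.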
